A study of Mus musculus with 24 samples.

Results

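Telencephalic-type astrocytes of the deep brain are a minority of the astrocytes in deep brain tissue that carry transcripts typical of astrocytes of the cortex, hippocampus and striatum. Members were deep brain nuclei with more than 500 and fewer than 7000 genes, less than 20% mitochondrial UMIs (unique molecular identifiers, each standing for 1 captured RNA molecule) and at least 5 summed UMIs of Slc39a12, Ntsr2, Gja1, Aqp4 and Atp13a4. They also needed at least 2 summed UMIs of Lypd6, Emx2os, Thbs4 and Myoc, and more of these than of Agt, Itih3 and Slc6a11. Nuclei with Rbfox3 or Csf1r, with more than 1 UMI of Mog, Mag and Mobp, or with more than 2 of Dnah12 and Cfap299 were left out, limits meant for neurons, microglia, oligodendrocytes and ependymal cells. The limits chose 712 nuclei, 7.68% of the 9272 deep brain nuclei that met the astrocyte limits and 0.570% of all 124958 deep brain nuclei within the limits on genes and mitochondrial share. Of the other astrocytes, 7671 had at least 2 UMIs of Agt, Itih3 and Slc6a11 and more of these than of the telencephalic genes, and are called non-telencephalic here. The remaining 889 met neither set of limits.

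Nuclei came from 6 mutant mice (Pdgfb ret/ret) and 6 control mice (Pdgfb ret/wt), and every mouse gave 1 deep brain and 1 cortical library, 24 in all. The ret allele encodes a PDGF-B protein without its retention motif, and the mutants are a model of brain vessel calcification, which develops in the deep brain. All mice were of the strain B6.Pdgfbtm3Cbet, and the controls also carry 1 ret allele, so no mouse with 2 wild-type alleles was measured. Every mouse was female apart from control mouse 6, a male. The labels give an age of 5 months and 0 to 18 days for those numbered 1 to 3 in either genotype, and of 4 months and 7 to 24 days for those numbered 4 to 6. Per a figure legend of the study the deep brain piece held pallidum, thalamus, hypothalamus, midbrain and pons, and the cortical piece cortex and hippocampus. Pdgfb itself was at 1.58 CPM in the members (CPM, UMIs of a gene per 1000000 UMIs of the nuclei summed) and the allele removes protein sequence, so these counts do not check the genotype.

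Astrocytes take their regional identity from the part of the embryonic neural tube in which they arise, and keep it in the adult. Telencephalic astrocytes descend from progenitors that use the transcription factors Lhx2 and Emx2. Astrocytes of the diencephalon, midbrain and hindbrain descend from progenitors with Irx, Pax3 or Otx2 and carry more of the GABA transporter Slc6a11. Within the telencephalon, protoplasmic astrocytes fill the grey matter and take up glutamate, and fibrous and border astrocytes lie in white matter and at the brain surface and are rich in the intermediate filament protein Gfap.

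Deep brain libraries held 64736053 to 96459036 UMIs and 7715 to 11952 nuclei within the limits. Of their members, 462 came from controls (28 to 112 per library) and 250 from mutants (18 to 67 per library). The summed members of a library held 96359 to 528445 UMIs. Members had a median of 4102.5 UMIs and 2116.5 genes per nucleus, and non-telencephalic astrocytes a median of 3287 UMIs. Pairs of libraries shared 60 to 246 of their barcodes (median 127.5 over 276 pairs), and no barcode occurred among the members of more than 1 deep brain library.

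Each member was chosen for its UMIs of the rule's genes, so their levels are a description without a test. Lypd6 (chromosome 2, 50066429 to 50193569, plus strand of GRCm38, protein coding), a membrane-anchored modulator of nicotinic receptors, had a UMI in 70.9% of members. Emx2os (chromosome 19, 59425104 to 59458635, minus strand), the noncoding antisense neighbour of Emx2, had a UMI in 64.3%. Thbs4 (chromosome 13, 92751590 to 92794818, minus strand, protein coding), which encodes the secreted matrix protein thrombospondin 4, had a UMI in 24.3%. Myoc (chromosome 1, 162639155 to 162649693, plus strand, protein coding), which encodes the secreted protein myocilin, had a UMI in 8.01%. By the difference of the classes that the rule fixed, non-telencephalic astrocytes had a Lypd6 UMI in 6.14% of nuclei, an Emx2os UMI in 5.57%, a Thbs4 UMI in 0.965% and a Myoc UMI in 0.600%. Lypd6 also had a UMI in 14.9% of oligodendrocytes.

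Lypd6 and Emx2os were each found in most members and often shared a nucleus, while Thbs4 and Myoc were rarer and seldom did. Lypd6 (505 nuclei) and Emx2os (458 nuclei) occurred together in 323 of the 712 members. Thbs4 (173 nuclei) and Myoc (57 nuclei) occurred together in 4. The rule chose members by the sum of these 4 genes, so their overlap was partly fixed by it and was not tested. Genes found in most members share many nuclei without any link, so these counts do not show that Lypd6 and Emx2os go together. In 527 members the UMIs of Lypd6 and Emx2os outnumbered those of Thbs4 and Myoc, in 147 the reverse was true, and 38 were tied. Of the 147, 49 held Myoc and 98 did not, and both kinds were found in all 12 deep brain libraries. Myoc was concentrated in few nuclei, 40 of which had at least 5 UMIs of it and 1 of which had 46.

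Nuclei near the limits held the markers outside the rule as well. Members with exactly 2 UMIs of the telencephalic genes (158 nuclei) had 312 CPM of Gldc and 67.4 CPM of Lhx2, close to the 325 and 66.0 CPM of members with more. Outside the limits, 99 astrocytes with 1 telencephalic UMI and none of Agt, Itih3 and Slc6a11 had 276 CPM of Gldc and 36.0 CPM of Lhx2. A further 136 astrocytes with at least 2 telencephalic UMIs and as many of the other genes had 374 CPM of Gldc and 42.6 CPM of Lhx2. Gldc was thus alike on both sides of the limits, and Lhx2 was lower outside them.

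Most regional genes outside the rule matched the label, and some did not. Lhx2, a transcription factor of cortical progenitors, averaged 56.5 CPM ± 24.6 (SD, n = 12 libraries) in members and 8.60 ± 5.88 in non-telencephalic astrocytes of the same libraries. Emx2, which patterns the dorsal telencephalon, averaged 37.3 ± 12.3 against 5.56 ± 3.92 CPM. Both genes were higher in members in 12 of 12 libraries. A UMI of Lhx2 was found in 23.6% of members, 2.52% of non-telencephalic astrocytes and 0.502% of oligodendrocytes, which should lack it and stood for free RNA (median depth 2772 UMIs). For Emx2 these shares were 13.2%, 1.83% and 0.162%. Emx2 overlaps the rule gene Emx2os on the other strand (chromosome 19, 59458372 to 59465357), and whether reads were assigned by strand is not given in the sources used here, so its value may not be independent of the rule. Of 19 genes listed for the diencephalon, midbrain and hindbrain, 13 were lower and 6 higher in summed members than in non-telencephalic astrocytes. Among the lower were Irx2, Pax3 and Otx2, at 3.79, 5.68 and 6.94 CPM against 32.3, 40.0 and 28.7 CPM. The higher were Zic1, Zic2, Zic4, Zic5, Meis2 and, on 1 UMI in all members, Hoxb2. Meis2, with a log2 difference of 1.07, was past 2-fold and higher in 12 of 12 libraries. Through Meis2 and Tcf7l2 the list summed to 893 CPM in control members, 984 CPM in mutant members and 836 CPM in non-telencephalic astrocytes, so the list as a whole did not set the classes apart. Pan-astrocyte genes were present in both classes.

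Beyond regional transcription factors, members and non-telencephalic astrocytes differed in many genes. Among 4343 genes outside the rule with at least 50 CPM in the higher class, 95 (2.19%) were at least 2-fold higher in members and 100 (2.3%) at least 2-fold lower, in 1 direction in every library and on the scale of log2(CPM + 10). The classes were divided by expression, so these counts describe the division and were not tested.

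The higher genes had varied roles. Lama3, which encodes a laminin chain, averaged 168 CPM ± 52.0 in members and 14.1 ± 8.91 in non-telencephalic astrocytes, a mean log2 difference of 2.90 ± 0.56 (SD, n = 12 libraries). Gfra1, the GDNF co-receptor, differed by 2.39 ± 0.72, the ubiquitin ligase gene Pdzrn3 by 2.38 ± 0.63 and the ephrin receptor gene Ephb1 by 2.26 ± 0.63. Ephb1 was also at 536 CPM in oligodendrocytes. Hapln1, which links hyaluronan to proteoglycans, differed by 1.97 ± 0.56, the transcription cofactor gene Dach1 by 1.99 ± 0.49 and Fam13c by 2.09 ± 0.47. The transcripts C030018K13Rik, AA387883 and Gm26843 differed by 2.36 ± 0.53, 2.08 ± 0.58 and 1.99 ± 0.63. Gfap differed by 2.05 ± 0.60, and its level varied widely between kinds of member, as described below.

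Gldc (chromosome 19, 30098447 to 30175429, minus strand of GRCm38, protein coding), the glycine decarboxylase of the mitochondrial glycine cleavage system, was a marker proposed for these nuclei and not part of the rule. It averaged 318 CPM ± 73.8 in members and 71.8 ± 21.0 in non-telencephalic astrocytes. The mean log2 difference was 2.01 ± 0.39 and Gldc was higher in members in 12 of 12 libraries. A UMI of it was found in 65.6% of members, 17.4% of non-telencephalic astrocytes and 0.365% of oligodendrocytes. Slc6a9, the glycine transporter GlyT1, was among the lowest genes of the members, at 20.7 ± 8.01 against 180 ± 43.7 CPM, a log2 difference of -2.66 ± 0.47. The list of glycine and serine metabolism holds enzymes and not this transporter, and of its 6 genes with enough reads 1, Gldc, was past 2-fold. The other subunits of the glycine cleavage system, Amt, Gcsh and Dld, had summed levels of 9.47, 19.9 and 46.7 CPM in members and 10.4, 17.0 and 48.1 CPM in non-telencephalic astrocytes.

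Some genes of glutamate signalling also differed between the classes. Slc1a2, the main glutamate transporter of the forebrain, averaged 10806 CPM ± 899 in members and 4534 ± 839 in non-telencephalic astrocytes. Grm3, a metabotropic glutamate receptor, averaged 1766 ± 443 against 672 ± 166 CPM, and oligodendrocytes held 1705 CPM of it. Gria1, an AMPA receptor subunit that is not in the list counted below, went the other way at 160 ± 60.9 against 1340 ± 144 CPM. Of 17 genes of glutamate, potassium and GABA handling, 2 (Slc1a2 and Grm3) were past 2-fold higher and 2 past 2-fold lower, with a median log2 difference of -0.48. The lower pair handle potassium and glycine and not glutamate. The potassium channel gene Kcnj10 was one of the lower pair, at 117 ± 40.6 against 289 ± 42.5 CPM, and Slc6a9 the other.

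The lower genes were led by B230323A14Rik, at 11.8 CPM ± 18.1 in members and 353 ± 85.1 in non-telencephalic astrocytes, a log2 difference of -4.32 ± 0.74. Erbb4, a neuregulin receptor, differed by -3.40 ± 0.88, Kcnd2, which encodes a potassium channel, by -2.89 ± 0.78 and the receptor regulator Lrig1 by -2.56 ± 0.31. Sparc, which encodes a secreted matrix protein, averaged 84.9 ± 41.2 against 513 ± 90.7 CPM. Sfrp5, a secreted Wnt inhibitor, averaged 3.87 ± 4.24 against 69.6 ± 14.3 CPM, and Cyp26b1, which breaks down retinoic acid, 1.20 ± 2.30 against 58.8 ± 37.8 CPM. A330076C08Rik, Car10 and Chl1 were the other genes of this group, with log2 differences of -2.61 ± 0.74, -2.38 ± 1.22 and -2.22 ± 0.53.

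**Figure D1:**
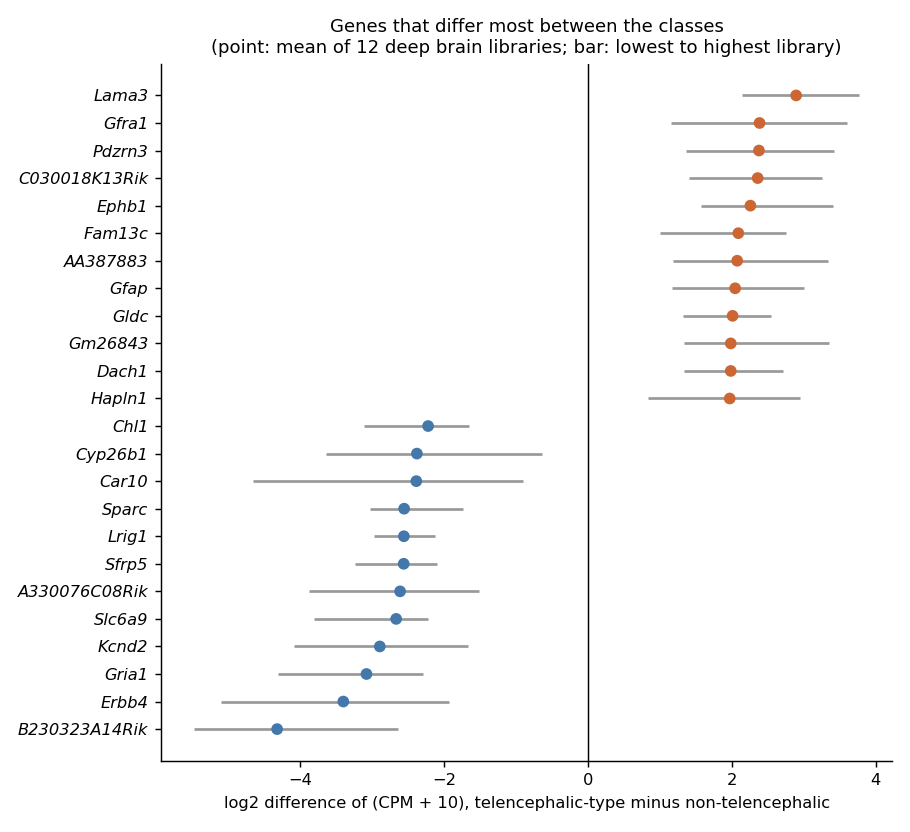
Log2 difference of CPM + 10 between telencephalic-type and non-telencephalic astrocytes for the 12 genes highest and the 12 lowest in members outside the rule. Points are means of 12 deep brain libraries and bars run from the lowest to the highest library; all bars stay on 1 side of 0, from B230323A14Rik at -4.32 to Lama3 at 2.90.

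Members were of at least 3 kinds by the genes of the rule that led them. Against the 527 members led by Lypd6 and Emx2os, the 147 led by Thbs4 and Myoc held more transcripts of fibrous and border astrocytes. Gfap was at 788 CPM in the Thbs4 or Myoc led nuclei and 93.9 CPM in the others, and higher in the former in 12 of 12 libraries. Summed levels were 707 against 96.0 CPM for Igfbp5, 105 against 11.5 CPM for the intermediate filament gene Vim, 88.1 against 10.3 CPM for the hyaluronan receptor gene Cd44 and 202 against 63.2 CPM for the matrix protein gene Tnc. The complement gene C4b was at 346 against 52.9 CPM, Apoe at 6650 against 2430 CPM and the glutamine transporter gene Slc38a1 at 603 against 59.9 CPM. The proteoglycan gene Gpc5, at 4636 against 9811 CPM, and Grm3, at 859 against 2146 CPM, were lower. Lhx2 was at 57.6 CPM (34 UMIs) and 69.7 CPM (170 UMIs). Mitochondrial transcripts moved with this division, since mt-Co1 was at 840 CPM in the Thbs4 or Myoc led nuclei and 271 CPM in the others. Oligodendrocyte markers did so too, as 5 of them summed to 978 CPM in the Thbs4 or Myoc led nuclei, 545 CPM in the others and 15958 CPM in oligodendrocytes. The part of either in the division was not tested.

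Nuclei with Myoc stood apart among the Thbs4 or Myoc led members. The 49 with Myoc held 1449 CPM of Gfap and the 98 without it 389 CPM. Much of Cd44 and Tnc in this group came from the nuclei with Myoc too, at 198 CPM (44 UMIs) and 378 CPM against 21.7 CPM (8 UMIs) and 95.1 CPM without. Water channel transcripts of Aqp4, a gene of the rule, were at 3249 CPM with Myoc and 644 CPM without. Neither Slc7a10, an amino acid transporter gene of grey matter astrocytes, nor the secreted factor gene Nrg1 was common with Myoc, at 13.5 CPM (3 UMIs) and 49.5 CPM (11 UMIs), while nuclei without Myoc held 234 and 478 CPM. Ctnna3 and Nrp2 were at 635 and 630 CPM with Myoc, at 27.2 and 48.9 CPM without it and at 30.8 and 31.2 CPM in members led by Lypd6 and Emx2os. These genes were chosen after their values were seen. Mitochondrial transcripts also moved with this division, as mt-Co1 was at 1202 CPM with Myoc and 622 CPM without, and their part was not tested. Both kinds had Lhx2, at 40.5 CPM (9 UMIs) with Myoc and 67.9 CPM (25 UMIs) without. The nuclei with Myoc also held the caudal genes Pax3, at 58.5 CPM (13 UMIs), and Irx5, at 36.0 CPM (8 UMIs). These were at 8.15 CPM (3 UMIs) and 2.72 CPM (1 UMI) without Myoc and at 0.820 and 0.410 CPM in members led by Lypd6 and Emx2os. For the kind with Myoc the telencephalic label is thus mixed, and it is named by that gene here.

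**Figure D2:**
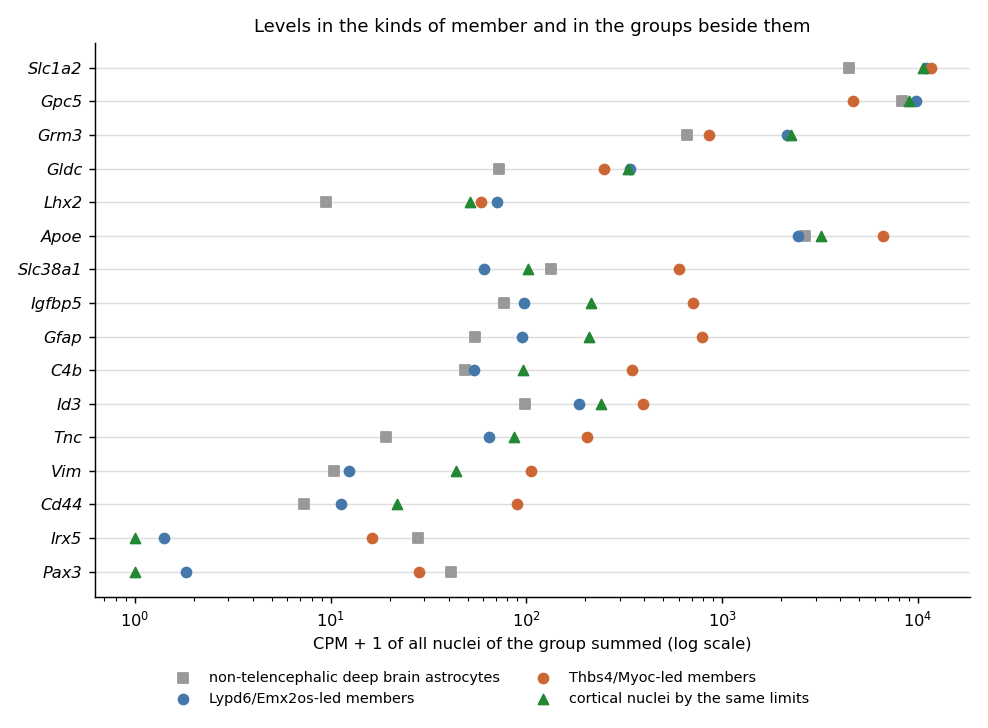
Summed CPM + 1 on a log axis for 16 genes in Lypd6 or Emx2os led members, Thbs4 or Myoc led members, non-telencephalic astrocytes and cortical nuclei chosen by the same limits. Gfap, at 788 CPM in Thbs4 or Myoc led members, lies to the right of the other 3 groups, while Lhx2 and Gldc separate non-telencephalic astrocytes from all others.

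The same limits chose 420 of 1393 cortical astrocyte nuclei (30.2%) and 7.68% of deep brain astrocytes, and the non-telencephalic limits chose 43.5% and 82.7%. In the cortical piece more astrocytes were thus called non-telencephalic than telencephalic. Cortical nuclei of the non-telencephalic limits held 50.1 CPM of Lhx2 beside 50.6 CPM in those of the telencephalic limits. The limits thus missed many telencephalic astrocytes of that piece. How many of them the non-telencephalic class of the deep brain holds was not tested. Cortical libraries were thin, with 6 to 125 nuclei of the telencephalic limits. The 10 libraries with at least 10 of these nuclei (5 per genotype) were compared with the 12 deep brain libraries.

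Members and cortical nuclei chosen by the same limits were close in the genes that set members apart from their neighbours. Gldc averaged 318 CPM ± 73.8 in the deep brain (n = 12) and 348 ± 55.8 in the cortex (n = 10), and Lhx2 56.5 ± 24.6 and 45.4 ± 20.8. With edgeR's quasi-likelihood test and Benjamini-Hochberg adjustment, 0 of 4309 genes (0%) differed between regions, 311 had an unadjusted p under 0.05, and DESeq2 called 21. The smallest adjusted p was 0.0902, reached among others by Resp18 (62.7 ± 22.4 against 23.6 ± 18.4 CPM), the neuronal glutamate transporter gene Slc17a7 (13.8 ± 10.4 against 56.5 ± 35.3 CPM), Igfbp2 and Nkain2. The absence of calls does not show that the nuclei were alike.

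The next question was whether mutants held fewer of these nuclei. Telencephalic-type nuclei were 11.4% ± 5.26 (SD, n = 6) of deep brain astrocytes in controls and 4.64% ± 1.72 (n = 6) in mutants, a difference of -6.75 percentage points (two-sided exact permutation test, p = 0.00866). Controls ranged from 4.74% to 18.5% with a median of 9.92%, and mutants from 2.49% to 6.69% with a median of 4.33%. Control mouse 3 lay within the range of the mutants, and the other 5 controls lay above all mutants. With nuclei thinned to 1500 UMIs, which left out 2404 of 60354 control and 2578 of 64604 mutant nuclei, the shares were 5.35% ± 2.65 and 2.28% ± 0.851 (exact permutation p = 0.0173). Among all deep brain nuclei within the limits, members were 0.793% ± 0.394 in controls and 0.380% ± 0.174 in mutants (exact permutation p = 0.0433). That last p passed 0.05 when any of 7 mice was left out, reaching 0.0909 without mutant mouse 1.

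A possible sign of which tissue a library held moved with this share. Slc17a7, a gene of excitatory neurons, was at 124 CPM ± 34.3 in neuronal nuclei of control deep brain libraries and 64.0 ± 36.9 in those of mutants (exact permutation p = 0.0195, adjusted p = 0.156 over 8 such measures). Whether these levels came from telencephalic neurons alone was not tested. Controls ranged from 77.9 to 173 CPM and mutants from 21.9 to 105 CPM, so the groups overlapped. Cortical libraries held 209 to 287 CPM. Control mouse 3 had the lowest Slc17a7 level and the lowest share of members among controls, while mutant mouse 3 had the lowest Slc17a7 level and mutant mouse 1 the lowest share of members among mutants. Rgs9, a gene of striatal neurons, went the other way, at 173 ± 127 CPM in controls and 233 ± 77.9 CPM in mutants (exact permutation p = 0.342). A different amount of telencephalic tissue in the dissected pieces and fewer such astrocytes per piece of tissue cannot be told apart from these shares. Nor can either be told apart from lower levels of the rule's telencephalic genes in mutants, since nuclei were counted by those UMIs. In non-telencephalic astrocytes 2 of these genes were tested for genotype, with a median log2 fold change of -0.77, and 0 passed.

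**Figure D3:**
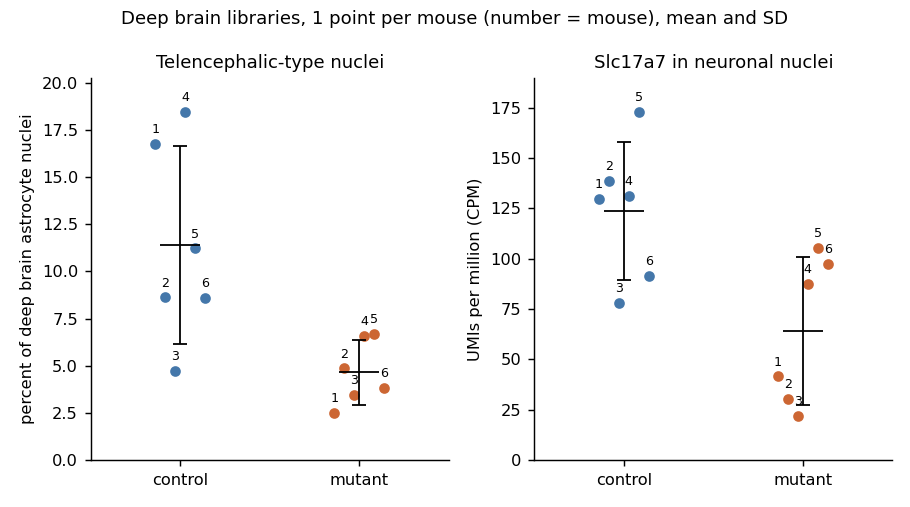
Deep brain libraries by genotype, 1 point per mouse with the mouse's number, and the mean and SD of 6 mice. The panels give telencephalic-type nuclei as a percent of astrocytes (11.4% in controls, 4.64% in mutants) and the CPM of Slc17a7 in neurons; control mouse 3 is the lowest control in both.

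The make-up of the members was not found to differ by genotype. Nuclei led by Thbs4 or Myoc were 22.1% ± 10.6 of members in controls (11.4% to 39.3%) and 25.8% ± 15.5 in mutants (8.70% to 50%), with an exact permutation p of 0.656 and 4 to 27 such nuclei per library. The interval between libraries was wide, and the direction turned without mutant mouse 1.

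Gene expression of the members differed between genotypes in 74 of 4653 genes tested (1.59%), with 45 higher (0.967%) and 29 lower (0.623%) in mutants (edgeR's quasi-likelihood test on counts summed per library, Benjamini-Hochberg adjusted p under 0.05). DESeq2 called 83. When the level of Slc17a7 in the neurons of each library was added to the fit as a covariate, 0 of 4653 genes passed in edgeR and 374 had an unadjusted p under 0.05. All 74 genes kept their direction in that fit and 65 of them had an unadjusted p under 0.05. That covariate was chosen after the data were seen. It moves with genotype, so a difference between genotypes and one in tissue make-up cannot be told apart by it. Without control mouse 1, control mouse 4 or mutant mouse 4 the count fell to 39, 48 and 42. Without the 7 members of over 3 times the median UMI count, 5 of them from mutants, it was 56.

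Among all 4653 genes, 71 (1.53%) had CPM ranges of mutants and controls that did not overlap. Cyp4f15, a cytochrome P450 gene, ranged from 120 to 189 CPM (median 149) in controls and from 20.7 to 84.1 CPM (median 64.3) in mutants. Every mutant was below every control, with a log2 fold change of -1.19 ± 0.21 (SE, edgeR adjusted p = 0.00419). Neurons and oligodendrocytes held 0.191 and 0.422 CPM of it.

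C030018K13Rik, a transcript that also set members apart from other astrocytes, ranged from 180 to 314 CPM (median 221) in controls and from 62.3 to 172 CPM (median 103) in mutants. The groups did not overlap, and its log2 fold change was -0.99 ± 0.20 (edgeR adjusted p = 0.0144). In non-telencephalic astrocytes it fell by 2.06 on the log2 scale (edgeR adjusted p = 0.00302). Ephb1, another gene of that kind, ranged from 303 to 485 CPM (median 405) in controls and from 92.5 to 310 CPM (median 146) in mutants. Only mutant mouse 6 reached the range of the controls, and the log2 fold change was -1.20 ± 0.20 (edgeR adjusted p = 0.00347).

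Further genes with lower levels in mutants spanned several functions. Abhd14b, a hydrolase gene, ranged from 98.8 to 123 CPM in controls and from 44.5 to 77.1 CPM in mutants without overlap (log2 fold change -0.90 ± 0.18, edgeR adjusted p = 0.0118). Slc30a10, a manganese exporter gene, fell by 0.90 on the log2 scale (edgeR adjusted p = 0.0311) and Agmo, which encodes the enzyme that cleaves ether lipids, by 1.02 (edgeR adjusted p = 0.0144). Pdgfc, which encodes a ligand of the PDGF receptor alpha, averaged 84.2 ± 15.9 CPM in controls and 42.1 ± 16.8 CPM in mutants (log2 fold change -0.96 ± 0.23, edgeR adjusted p = 0.0338). The call of Pdgfc held in 8 of 25 alternatives, and its edgeR adjusted p was 0.0578 with the replicate block and 0.259 in members with few neuronal UMIs. Lrrc8c, a subunit of volume-regulated anion channels, Ptchd4, 4930578G10Rik and Shroom3, an actin-binding protein gene, had log2 fold changes of -1.24, -1.11, -1.31 and -1.69. Unc13c, a gene of vesicle priming, had the largest, at -1.82 ± 0.38 (edgeR adjusted p = 0.0154), with 66.0 to 335 CPM in controls and 9.89 to 121 CPM in mutants.

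Of the 45 genes higher in mutants, 28 (62.2%) had more CPM in neurons than in members, against 1678 of all 4653 genes (36.1%) and 3 of the 29 lower ones. Rbfox1, a splicing factor gene of neurons, ranged from 71.9 to 382 CPM (median 191) in controls and from 424 to 1557 CPM (median 772) in mutants, without overlap. Its log2 fold change was 1.97 ± 0.31 (edgeR adjusted p = 0.00176), and neurons of the same libraries held 6962 CPM. Fam155a, whose product belongs to the NALCN channel complex, ranged from 27.0 to 206 CPM and from 285 to 1038 CPM, without overlap (2.03 ± 0.30, edgeR adjusted p = 0.00176). Cacna1a, a calcium channel gene, ranged from 27.0 to 97.2 CPM and from 124 to 270 CPM, also without overlap (1.60 ± 0.24, edgeR adjusted p = 0.00176).

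The UMIs of some of these genes sat in few nuclei. Of the Adarb2 UMIs, an interneuron gene with the largest log2 fold change (2.69 ± 0.53, edgeR adjusted p = 0.0108), 84.5% came from 10 nuclei, and 1 nucleus of mutant mouse 6 held 105 of 476. Of the Kcnip4 UMIs, a gene for a potassium channel partner (log2 fold change 2.19 ± 0.46, edgeR adjusted p = 0.0154), 64.8% came from 10 nuclei, and 1 nucleus of mutant mouse 4 held 648 of 1890. For Xkr4 this share was 55.5% and for Spock1, a proteoglycan gene, 47.7%. It was 8.66% for Ephb1 and 9.81% for Cyp4f15. The summed level of 9 neuron markers was 1066 CPM in controls (710 to 1463) and 2335 CPM in mutants (1024 to 3290), against 18415 CPM in neurons and 1457 CPM in non-telencephalic astrocytes, and none of the markers was at 0. These sums include Rbfox1, itself a called gene, with means of 202 CPM in controls and 843 CPM in mutants.

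Without the 7 very deep members, 6 of the named genes no longer passed in edgeR. Their log2 fold changes fell to 1.34 for Adarb2, 0.83 for Kcnip4, 1.08 for Rbfox1, 0.72 for Spock1 and 0.53 for Xkr4 (edgeR adjusted p of 0.217, 0.160, 0.0563, 0.377 and 0.422), and Pdgfc was at -0.87 (edgeR adjusted p = 0.0693). Fam155a, at 1.51, and Cacna1a, at 1.26, still passed (edgeR adjusted p of 0.0183 and 0.0124).

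Members with at most 2 neuronal UMIs were also fitted alone, a choice made after the data were seen. Of 2836 genes 43 passed in edgeR, and 34 of these were among the 74. Fam155a, Cacna1a and Rbfox1 still passed, with log2 fold changes of 2.58, 1.45 and 1.47 (edgeR adjusted p of 0.00455, 0.00872 and 0.0320). Of the 24 named genes, 17 were tested and 12 of these passed. Kcnip4 was at 0.67 and did not pass (edgeR adjusted p = 0.0555). Unc13c, Ptchd4, Agmo and Pdgfc, lower in mutants, did not pass either (edgeR adjusted p of 0.0575, 0.0524, 0.0662 and 0.259). Adarb2, Xkr4, Spock1, Nav1, Cthrc1, 4933406I18Rik and Shroom3 had too few UMIs to be tested. Rbfox1 was one of the genes counted as neuronal markers in the sums above and was not used to choose these nuclei.

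Of the 12 named genes higher in mutants, Cthrc1 alone had fewer CPM in neurons than in members. Rbms3, an RNA-binding protein gene, ranged from 147 to 288 CPM (median 239) in controls and from 348 to 903 CPM (median 613) in mutants, without overlap. Its log2 fold change was 1.43 ± 0.22 (edgeR adjusted p = 0.00176), and 63.6% of mutant and 39.4% of control members held a UMI. Neurons held 526 CPM of it. Cthrc1, which encodes a secreted glycoprotein, ranged from 11.6 to 46.3 CPM and from 47.7 to 100 CPM, with 20.6 CPM in neurons (1.43 ± 0.28, edgeR adjusted p = 0.0108). Nav1, a neuron navigator gene, Alk, a receptor tyrosine kinase gene, and the noncoding transcript 4933406I18Rik had log2 fold changes of 1.56, 1.42 and 1.48, with 175, 161 and 108 CPM in neurons. Alk did not pass with the replicate block (1.27, edgeR adjusted p = 0.0620).

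**Figure D4:**
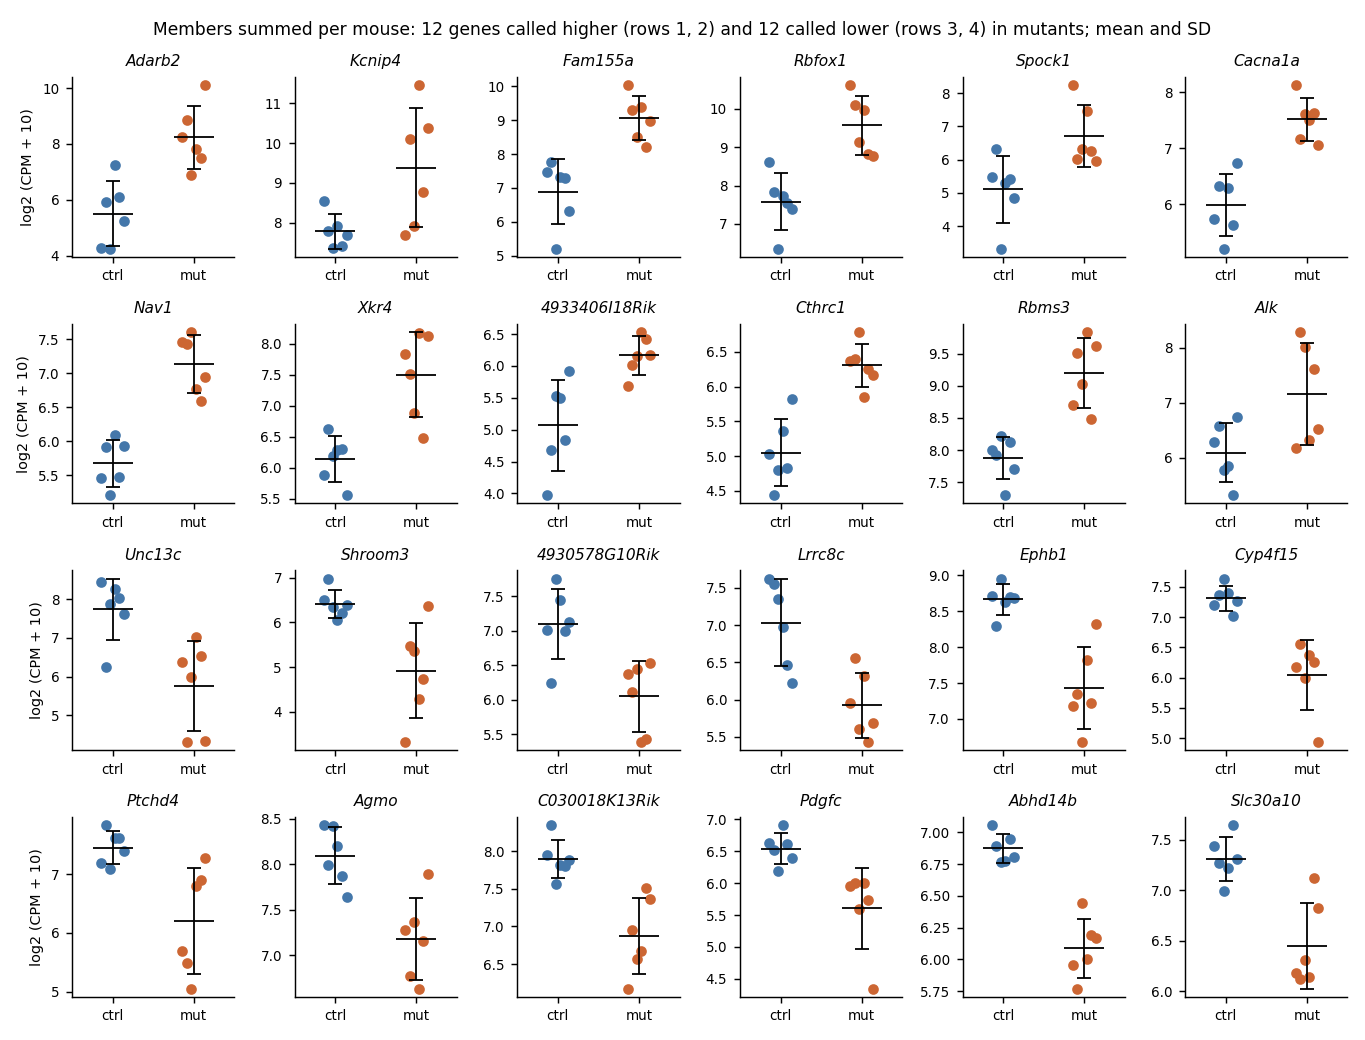
Log2 of CPM + 10 in the summed members of each deep brain library, 1 point per mouse with mean and SD of 6 controls (ctrl) and 6 mutants (mut), for the 12 genes with the largest fold changes in each direction. Cyp4f15, Abhd14b, Rbms3 and Cacna1a separate all mutants from all controls, and Adarb2 and Kcnip4 spread most widely in mutants.

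The counts of the functional lists are read beside the 1.59% of all genes that passed, and with 1 or 2 genes each they set no list apart. Of 16 pan-astrocyte genes, all tested, 1 was lower in mutants and none higher, with a median log2 fold change of -0.11 beside 0.01 over all genes. The lower gene was Ndrg2, at 421 ± 25.6 CPM in controls and 275 ± 58.0 CPM in mutants (log2 fold change -0.61 ± 0.14, edgeR adjusted p = 0.0300). Of 6 telencephalic regional genes tested, 1 was lower, Mfge8, a secreted bridge for phagocytosis, at 443 ± 109 against 247 ± 65.6 CPM (-0.84 ± 0.19, edgeR adjusted p = 0.0282). Mfge8 also counts among 8 protoplasmic genes, of which no other passed. Lhx2 had a log2 fold change of -0.74 ± 0.26 and did not pass (edgeR adjusted p = 0.200), nor did Gldc (0.08 ± 0.17, adjusted p = 0.930).

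Of 7 fibrous and border genes tested, 1 was higher in mutants and none lower, with a median log2 fold change of 0.33. This was Id3, a transcriptional inhibitor induced by BMP signals, which ranged from 143 to 243 CPM in controls and from 258 to 432 CPM in mutants without overlap (0.95 ± 0.17, edgeR adjusted p = 0.00556). Gfap averaged 212 ± 52.5 and 312 ± 104 CPM, with a log2 fold change of 0.49 ± 0.22 that did not pass (edgeR adjusted p = 0.366). Of 35 genes linked to reactive astrocytes, 3 had enough UMIs to be tested and none passed. Of 27 interferon and antigen presentation genes, 3 were tested and none passed. In both lists all 3 tested genes had a positive fold change. In non-telencephalic astrocytes, where more genes could be tested, 8 of 17 interferon and 4 of 16 reactive genes were higher, beside 2.36% of all genes. The few genes tested in members thus do not show that such a change was absent there.

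Of 16 genes of glutamate, potassium and GABA handling, 1 was higher, the glutamine transporter gene Slc38a3, at 297 ± 63.8 against 599 ± 177 CPM (1.03 ± 0.19, edgeR adjusted p = 0.00556). Of 15 secreted synapse and matrix genes, Hapln1 was higher and the synapse-inducing proteoglycan gene Gpc6 lower. Hapln1 ranged from 97.2 to 117 CPM in controls and from 131 to 208 CPM in mutants, without overlap (0.74 ± 0.15, edgeR adjusted p = 0.0154). Gpc6 averaged 1108 ± 156 and 708 ± 152 CPM (-0.64 ± 0.14, edgeR adjusted p = 0.0248). None of 15 endfoot genes, 18 cholesterol genes, 7 glycine and serine genes, 8 Notch and hedgehog genes, 6 hypoxia and glycolysis genes and 7 phosphate and calcification genes passed. The last list includes Slc20a2 (log2 fold change 0.03 ± 0.25) and Xpr1 (0.13 ± 0.13), phosphate transporter genes mutated in familial brain calcification. Nor did any of 2 caudal regional genes, 3 stem cell genes, 1 immediate early gene, 5 oligodendrocyte markers or 1 marker each of microglia, vascular and ependymal cells that were tested. The median log2 fold change of the cholesterol genes was -0.40. That of 8 transcripts, the mitochondrial ones and Malat1, was 0.59, with 7 positive and none passing. Their sum went the other way, from 43249 ± 3858 CPM in controls to 37594 ± 2834 CPM in mutants. Most of that sum was Malat1, which averaged 39060 CPM in members.

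Non-telencephalic astrocytes of the same 12 libraries gave 481 calls among 12388 genes (3.88%), 292 higher and 189 lower in mutants. Both classes come from the same mice, and the fits rest on 7671 nuclei there and 712 here. Side by side, the log2 fold changes in members and in non-telencephalic astrocytes were -1.19 and -0.81 for Cyp4f15, -0.84 and -0.59 for Mfge8 and 1.60 and 0.96 for Cacna1a, each past the threshold in both. For Adarb2 they were 2.69 and -0.48, for Nav1 1.56 and 0.25, for Hapln1 0.74 and 0.11 and for Pbx3, a homeobox gene chosen after its values were seen, 1.32 and 0.02, and none of the 4 passed in non-telencephalic astrocytes. A direct test of the difference between the classes, with the library as a block, passed for 0 of 11645 genes (0%) in edgeR, with 719 at an unadjusted p under 0.05 and 1 call with RLE size factors. None of these genes was thus shown to respond in 1 class and not in the other. The smallest adjusted p was 0.0579, reached among others by Rbfox1 and Adarb2.

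**Figure D5:**
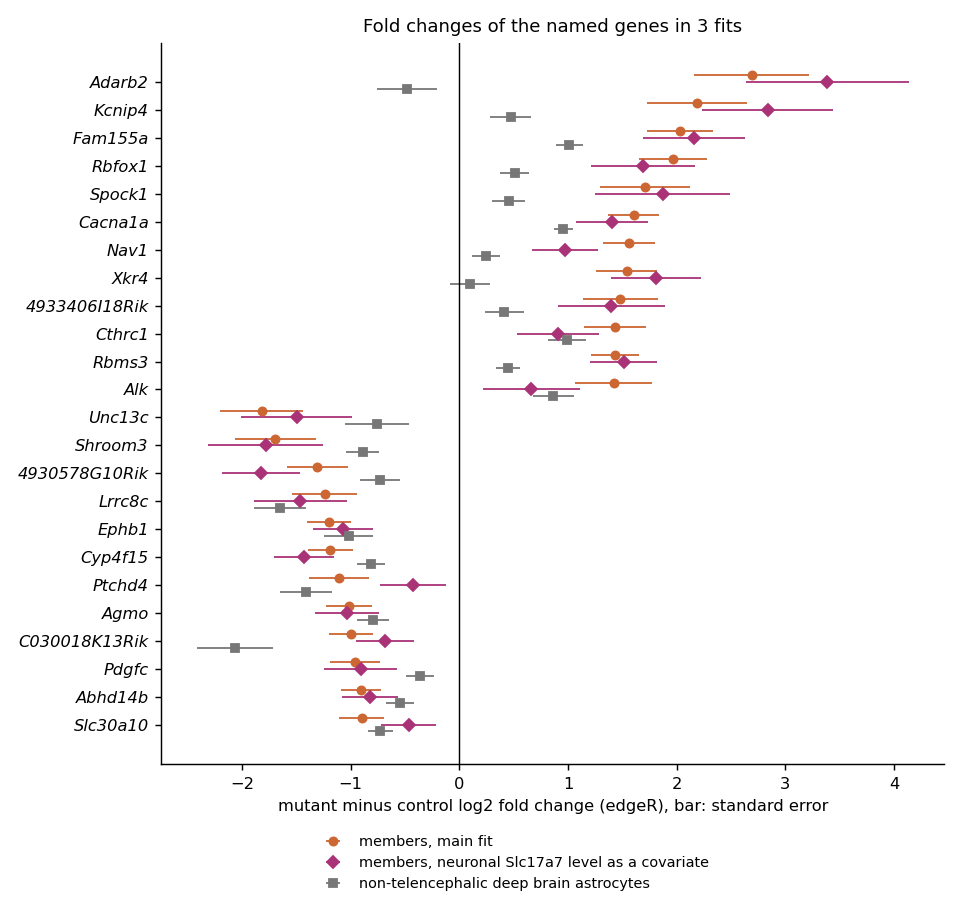
Mutant minus control log2 fold change with its standard error in edgeR for the 24 named genes, in members, in members with the Slc17a7 level of neurons as a covariate, and in non-telencephalic astrocytes. The covariate leaves all 24 directions as they were, and Adarb2 is the gene whose sign differs between the classes (2.69 and -0.48).

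In cortical nuclei chosen by the same limits, 0 of 2299 genes (0%) differed between genotypes in edgeR, with 167 at an unadjusted p under 0.05 and 5 called by DESeq2. The smallest adjusted p was 0.0605, for Mfge8, whose log2 fold change was -1.47 there and -0.84 in the deep brain. Of the 24 named genes, those that could be tested in the cortex all changed less there, by differing amounts. They had been chosen for a large change in the deep brain. Other called genes changed more in the cortex, among them Agbl4 (log2 fold change 1.54 in the cortex and 1.26 in the deep brain) and Cadps (1.40 and 1.12). Log2 fold changes in the cortex and then the deep brain lay nearer to each other for Kcnip4 (1.70 and 2.19), Fam155a (1.44 and 2.03), Unc13c (-1.35 and -1.82), Ephb1 (-0.84 and -1.20), Cyp4f15 (-0.88 and -1.19), C030018K13Rik (-0.89 and -0.99) and Abhd14b (-0.75 and -0.90). They lay further apart for Rbfox1 (1.12 and 1.97), Rbms3 (0.36 and 1.43), 4930578G10Rik (-0.27 and -1.31), Ptchd4 (-0.37 and -1.11), Agmo (-0.14 and -1.02) and Slc30a10 (-0.22 and -0.90). Btbd3, chosen after its values were seen, had opposite signs (-0.09 and 0.83). None of these passed in the cortex. The difference between regions in the genotype effect passed for 0 of 4309 genes in edgeR (156 with an unadjusted p under 0.05). That fit did not pair the pieces of a mouse, and with the mouse as a block 0 of 5170 genes passed. The cortical fits had 5 libraries per genotype, with as few as 10 nuclei in a library, and what size of effect they could find was not tested.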

How the data were processed

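Nuclei of 24 libraries were profiled with 10x 5′ chemistry. The authors deposited raw UMI counts per gene and nucleus, made per the study's methods with Cell Ranger on mm10 with intronic reads. The submitters' processing notes list bcl2fastq 2.20.0.422 and Cell Ranger 5.0.1. These whole-number counts were used as deposited, after 3 vector rows (465 UMIs) were left out. No doublet caller was run, and 7 members had over 3 times the median UMI count. Gene positions are those of GENCODE on GRCm38.

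The members and gene lists were chosen with earlier results of these data known. Counts were summed per library and class and tested with edgeR 4.0.16 in R 4.3.3 (TMM, filterByExpr, quasi-likelihood, Benjamini-Hochberg adjusted p under 0.05), using libraries with at least 10 nuclei. DESeq2 1.42.0 was an alternative. Shares were compared with two-sided exact permutation tests over 924 splits of the mice, which cannot give a p below 0.00216. Oligodendrocytes and neurons used as references were nuclei with at least 5 and 3 UMIs of their own markers. The script for the fits was tested on simulated data. With 200 of 4653 genes changed by 1 on the log2 scale, edgeR found 134 with 4 false calls in the genotype comparison of members. Named genes were the 12 of largest log2 fold change in each direction among called genes with at least 20 CPM, the 12 of largest difference in each direction between classes with at least 50 CPM, all genes of the rule, and called genes of each list. Python 3.11.15, scipy 1.17.1 and pandas 2.3.3 were used. Alternatives changed the filter, size factors, tool, limits, blocks and libraries. Some genes are not reported here.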

Additional observations from a re-analysis of the deposited data

Results flagged for a closer look

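Among 54 groups of 6 mice tested for a single sample far from the others, 3 were picked out, and chance picks out about 1 in 20 groups. Adarb2 was at 141 CPM in control mouse 4, with 8.99 to 57.8 CPM in the other controls. Adarb2 was at 1085 CPM in mutant mouse 6, with 108 to 455 CPM in the other mutants, and 105 of its 476 UMIs over all members came from 1 nucleus of that mouse. Pdgfc was at 10.3 CPM in mutant mouse 6, with 38.5 to 54.4 CPM in the other mutants.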

How the results depend on the processing

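The lower share of members among deep brain astrocytes kept its direction and stayed under 0.05 in every alternative run, from -8.08 to -5.34 points without 1 mouse. Among all nuclei the difference of -0.413 points gave p = 0.0625 in an exact test of sign flips with a replicate block and became -0.351 (exact permutation p = 0.0693) with at least 8 astrocyte UMIs, and ranged from -0.514 to -0.315 without 1 mouse. The Thbs4 or Myoc led share turned to -0.468 points when thinned and ranged from -1.12 to 7.17 without 1 mouse. The 74 genotype calls became 281 without a filter on low counts, 44 in libraries with at least 30 nuclei (5 controls, 3 mutants), 43 in members with few neuronal UMIs and 0 with the Slc17a7 covariate, the last 3 chosen after seeing the data, and 39 to 106 without 1 mouse. None of the 24 named genes changed direction in any alternative that tested it, but calls were lost, for Pdgfc in 17 of 25 alternatives, Alk and Ptchd4 in 13, Lrrc8c in 12, 4933406I18Rik in 12 of 21 and Spock1 in 11 of 24. With the covariate the standard error was larger for all 24, the fold change was larger for 11, and it was over 1.5 times smaller for 5, Alk (0.66), Cthrc1 (0.91), Nav1 (0.97), Ptchd4 (-0.42) and Slc30a10 (-0.46). The replicate block gave 61 calls, 50 of them among the 74. Deviations of same-numbered mice correlated by -0.04 to 0.13, so the numbers were not taken as pairs, and mice 2 and 3 alone correlated best with their own number. Each mutant had a control of the same age in days (numbers 1 to 4, mutant 5 with control 6 and mutant 6 with control 5). Those pairs also correlated by -0.04 to 0.13, and a block by age gave 68 calls, 53 of them among the 74. Without 1 mouse, non-telencephalic calls ranged from 254 to 880. For cortical nuclei the 0 calls became 5 with DESeq2, 171 without a filter, 3 with the replicate block, 2 with a block by age and 0 to 1 without 1 mouse. The class by genotype difference gave 1 call with RLE size factors and 0 to 17 without 1 mouse (17 without mutant mouse 5). Region gave 21 calls with DESeq2, 1 in control mice and 0 to 4 without 1 mouse. The cause of these changes was not tested. With 18 to 112 members per library, genes with few UMIs could not be tested.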
